A study of Homo sapiens with 4 samples.

Results

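Cytosolic nucleic acid sensors were examined in THP-1 cells, an established human monocytic leukaemia line, after knockdown of PIWIL4, a member of the PIWI clade of Argonaute proteins. The members were 10 genes chosen by name, DDX58 (RIG-I), IFIH1 (MDA5), DHX58 (LGP2), MAVS, TMEM173 (STING), MB21D1 (cGAS), IFI16, TREX1, ZBP1 and TBK1, out of 25680 gene rows in the deposited tables. All 10 were found, and 9 passed the filter on low counts; ZBP1 did not. Transcripts were counted by RNA-seq from cells grown in RPMI with 10% FBS, transduced with a lentivirus carrying either a scrambled short hairpin (PGP-Scrambled, n = 2 libraries) or a hairpin against PIWIL4 (PGP-shPIWIL4, n = 2 libraries), and sorted by FACS 48 h later. Both groups therefore carried a lentiviral hairpin vector. The shPIWIL4 group was taken from the sample titles, since its treatment label holds the word scrambled beside PIWIL4. The study deals with PIWIL4 and R-loops, and the comparison asks how transcript levels differ when PIWIL4 is reduced in leukaemia cells. No other hairpin against PIWIL4 and no untransduced cells were analysed here, so lower PIWIL4 and other effects of this hairpin cannot be told apart. The labels do not say whether the 2 libraries of a group came from separate cultures, so p-values measure the spread between these libraries, which may be technical.

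Cells detect viral or misplaced nucleic acids in the cytosol through separate RNA and DNA branches. RIG-I and MDA5 bind double-stranded RNA and signal through MAVS on mitochondria, while cGAS binds DNA and makes the cyclic dinucleotide cGAMP, which STING on the endoplasmic reticulum receives. Both branches meet at the kinase TBK1, which phosphorylates IRF3 and so switches on type I interferon genes; interferon then raises many genes, several of these sensors among them, through JAK-STAT signalling and the factor ISGF3. RNA-DNA hybrids such as R-loops are a known substrate of some of these pathways. Monocytes are known for an active STING pathway.

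Total counts ranged from 31458079 to 53657246 per library. PIWIL4 itself was at 38.5 and 37.2 CPM (counts scaled by TMM to the size of each library) in the Scrambled pair (values are given throughout for library 1, then 2) and at 17.8 and 17.4 CPM in the shPIWIL4 pair. It fell by 1.10 on the log2 scale (SE 0.09; adjusted p = 1.3e-05, edgeR's quasi-likelihood test, Benjamini-Hochberg adjusted), and it was lower in both libraries labelled shPIWIL4. Over all 16108 genes tested, 57.7% were called at an adjusted p under 0.05, 28.7% higher and 29.1% lower in shPIWIL4 (4618 and 4683 genes; 3446 and 5717 under upper-quartile scaling). The 8 monocytic markers were all detected and summed to 735 and 728 CPM in Scrambled and to 2292 and 2306 CPM in shPIWIL4. LYZ (147 to 1810 CPM in mean) and FCGR1A were called higher, CSF1R and CD4 lower, and the other 4, CD33 and SPI1 among them, were not called. T cell and erythroid marker lists summed to at most 0.472 CPM in every library, with CD3E, CD2 and HBG1 among those at 0 in all 4. The 3 NK cell markers summed to 28.6 and 32.0 CPM in Scrambled and to 26.7 and 24.1 CPM in shPIWIL4. Nearly all of this was NKG7, which was not called. The 4 B cell markers summed to 11.3 and 11.2 CPM in Scrambled and to 4.82 and 5.12 CPM in shPIWIL4, with 3 of 4 called lower; the 4 epithelial markers summed to 2.44 to 2.74 and 0.730 to 0.981 CPM, and the 4 fibroblast markers, of which COL1A2 and COL3A1 were at 0, to 1.83 to 2.37 and 0.178 to 0.308 CPM. The part of these markers in the results below was not tested.

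The upstream sequences of 3 members are shown because their transcripts divided: the helicase gene IFIH1 and the DNA sensor gene IFI16 rose, while DDX58, the close relative of IFIH1, was not called. Each run is the 250 bases before an annotated transcription start, 5′ to 3′ on the gene's strand, from RefSeq on GRCh38.p14 (IFIH1 at chr2:162318685-162318934, minus strand; DDX58 at chr9:32526197-32526446, minus strand; IFI16 at chr1:159009657-159009906, plus strand, the second of its 2 windows). Capitals mark AANNGAAA, the core that interferon regulatory factors bind, and GAAA-NN-GAAA, the interferon-stimulated response element (ISRE) core, which contains it; both strands were searched.
IFIH1: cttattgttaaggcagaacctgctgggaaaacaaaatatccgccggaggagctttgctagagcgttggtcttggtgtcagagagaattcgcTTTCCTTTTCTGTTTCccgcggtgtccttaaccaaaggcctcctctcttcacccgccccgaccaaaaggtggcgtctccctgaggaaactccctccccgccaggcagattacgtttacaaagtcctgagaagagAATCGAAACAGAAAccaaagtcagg
DDX58: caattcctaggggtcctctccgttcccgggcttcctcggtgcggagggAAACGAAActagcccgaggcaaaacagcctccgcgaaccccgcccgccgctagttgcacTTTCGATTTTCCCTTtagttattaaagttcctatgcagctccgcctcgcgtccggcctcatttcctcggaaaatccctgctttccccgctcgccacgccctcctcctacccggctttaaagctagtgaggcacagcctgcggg
IFI16: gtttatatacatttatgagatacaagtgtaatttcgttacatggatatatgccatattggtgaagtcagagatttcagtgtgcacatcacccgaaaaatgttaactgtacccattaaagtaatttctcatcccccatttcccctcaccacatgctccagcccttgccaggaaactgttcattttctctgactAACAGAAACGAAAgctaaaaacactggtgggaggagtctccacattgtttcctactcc
The IFIH1 window held 3 matches to the ISRE core, GAAACAGAAA on the gene's strand from 21 to 12 bases before the start, and an overlapping pair, read on the gene's strand as TTTCCTTTTC and TTTCTGTTTC, from 159 to 144 bases before it. The DDX58 window held 0 ISRE cores and 3 matches to AANNGAAA, the nearest from 136 to 129 bases before the start. The IFI16 window shown held 0 ISRE cores and an overlapping pair of AANNGAAA matches from 58 to 46 bases before the start. The IFI16 window not shown, at chr1:159008741-159008990, held 0 ISRE cores and 1 AANNGAAA match, from 128 to 121 bases before its own start. Windows were found for 6 of the 10 members, and those of MAVS, TREX1 and TBK1 held neither core. Of all 27305 genes with a window, 3.71% held the ISRE core and 23.9% the AANNGAAA core. A match is a description of letters and shows no binding.

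In these cells the sensors differed widely in level. By TPM, the authors' unit that is corrected for gene length and depth, STING was by far the most abundant, at 278 and 275 TPM in Scrambled, above 97.6% of tested genes. MAVS followed at 40.0 and 39.3 TPM, MB21D1 at 33.3 and 35.3, TBK1 at 30.7 and 31.6 and TREX1 at 13.6 and 15.1 TPM. The remaining tested sensors were low, with IFI16 at 6.65 and 6.32, IFIH1 at 5.98 and 5.45, DHX58 at 5.003 and 5.78 and DDX58 at 3.80 and 3.86 TPM. In this Scrambled order only the neighbours IFIH1 and DHX58 overlapped between libraries. In shPIWIL4 the order was the same except that TBK1, at 39.0 and 37.6 TPM, stood second, above MAVS at 35.5 and 35.2 and MB21D1 at 28.2 and 26.5 TPM; DHX58 (5.13 and 4.07) and DDX58 (3.61 and 4.21) overlapped there. The adaptors and the kinase were thus abundant and the RNA helicases scarce in both groups.

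**Figure D1:**
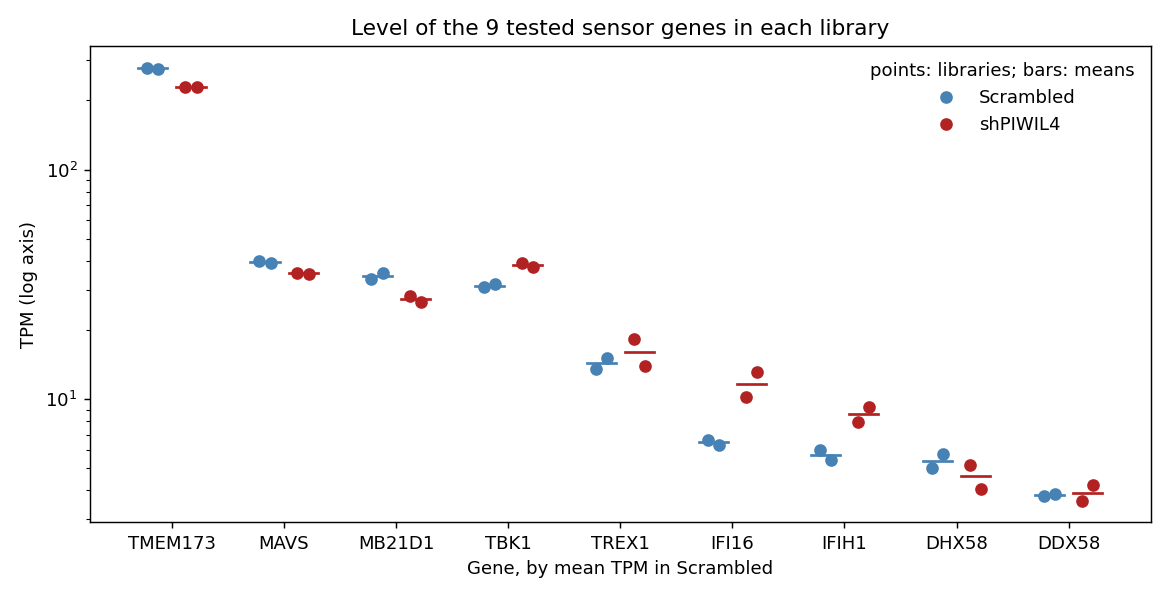
TPM on a log axis in each library for the 9 tested sensor genes, ordered by their mean in Scrambled; points are libraries (2 per group) and short bars are group means. TMEM173 lay between 229 and 278 TPM in all 4 libraries, and the red points lay above the blue ones for IFI16, IFIH1 and TBK1 and below them for TMEM173, MAVS and MB21D1.

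The sensors moved both ways after PIWIL4 knockdown, and by modest amounts. IFI16, IFIH1 and TBK1 were higher in shPIWIL4, MB21D1, TMEM173 and MAVS were lower, and DDX58, DHX58 and TREX1 were not called. That is 3 of 9 tested members higher and 3 lower, 66.7% called, against 57.7% called among all genes (28.7% higher, 29.1% lower), so the share is near the background. Upper-quartile scaling gave 2 higher and 4 lower. Without Scrambled library 1, and likewise without Scrambled library 2, edgeR called 2 higher and 0 lower, where 1 and 2 members were lower at an unadjusted p under 0.05. The CPM ranges of the groups did not overlap for 7 of the 9, against 78.6% of all genes tested. The median log2 fold change was -0.01, as against -0.003 over all genes, and the median size of change was 0.28 against 0.41. In bulk libraries, fewer cells of a kind and less RNA per cell cannot be told apart.

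**Figure D2:**
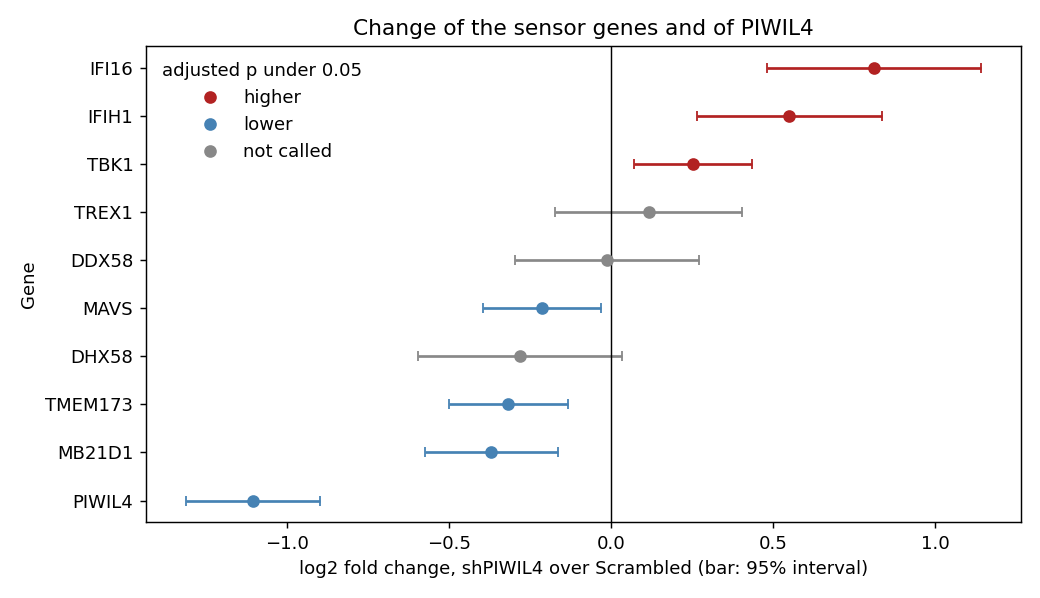
Log2 fold change of shPIWIL4 over Scrambled with its 95% interval (edgeR, 2 libraries per group) for the 9 tested sensor genes and for PIWIL4; colour gives the call at an adjusted p under 0.05. The changes ran from -0.37 for MB21D1 to 0.81 for IFI16, against -1.10 for PIWIL4.

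Among the RNA helicases in the member list, only IFIH1 was called. IFIH1 encodes MDA5, which recognises long double-stranded RNA. It was at 10.9 and 9.66 CPM in Scrambled (347 and 510 counts) and at 13.7 and 16.4 CPM in shPIWIL4 (692 and 850 counts). Both shPIWIL4 libraries lay above both Scrambled libraries. The rise was 1.46-fold, a log2 fold change of 0.55 (SE 0.13; adjusted p = 4.7e-03, edgeR's quasi-likelihood test), and IFIH1 was called under all 15 alternative settings.

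DDX58 encodes RIG-I, which recognises short RNA with a 5′ triphosphate. It was at 9.16 and 9.04 CPM in Scrambled and at 8.17 and 9.87 CPM in shPIWIL4. The shPIWIL4 libraries thus lay on either side of the Scrambled ones. The log2 fold change of DDX58 was -0.01 (95% interval -0.30 to 0.27, adjusted p = 0.95, edgeR). The interval includes small changes in either direction, so no difference was detectable with these libraries. DHX58 encodes LGP2, which lacks the signalling domain of the other 2 helicases and modulates them. It was at 6.64 and 7.44 CPM in Scrambled and at 6.39 and 5.25 CPM in shPIWIL4, both below the Scrambled values, library 1 narrowly, with a log2 fold change of -0.28 (95% interval -0.60 to 0.03; adjusted p = 0.11, edgeR). DHX58 was called lower in 3 of 15 alternatives, among them upper-quartile factors (-0.40, adjusted p = 0.037, edgeR). The others were a fit added after seeing the data, with the replicate numbers crossed, and the fit without shPIWIL4 library 1 (-0.42). That last fit leaves a lone shPIWIL4 library, which is assumed to vary like the other group. Without shPIWIL4 library 2 the log2 fold change of DHX58 was -0.14.

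The helicases can also be compared within a library, where scaling cancels. The ratio of IFIH1 to DDX58 counts was 1.19 and 1.07 in Scrambled and 1.67 and 1.66 in shPIWIL4. The ratio of DHX58 to IFIH1 counts went from 0.608 and 0.771 to 0.468 and 0.321. The groups did not overlap for either ratio. Both pairs set IFIH1, called higher, against a gene that was not called, so the ratios restate the single-gene changes. No share over all gene pairs was computed. With 2 libraries against 2, an exact permutation test cannot pass 0.05, and none was run on the ratios.

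MAVS, the mitochondrial adaptor onto which RIG-I and MDA5 converge, was abundant and slightly lower. It was at 239 and 228 CPM in Scrambled and at 199 and 204 CPM in shPIWIL4, without overlap. The log2 fold change was -0.21 (SE 0.08; adjusted p = 0.047, edgeR), just under the threshold. It was called under 5 of the 15 alternatives, with a range of -0.33 to -0.15. Among the settings that left it uncalled, its value was -0.15 without Scrambled library 1, -0.24 without Scrambled library 2 and -0.18 without shPIWIL4 library 1. With all 4 libraries, MAVS was also not called by DESeq2 (-0.20, adjusted p = 0.093, Wald test). It was likewise not called without the filter on low counts (-0.17, adjusted p = 0.079, edgeR) or by limma on log2(TPM + 1) (-0.16, adjusted p = 0.080, limma).

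In the DNA branch, both cGAS and STING transcripts were lower. MB21D1, which encodes cGAS, was at 30.4 and 31.3 CPM in Scrambled and at 24.2 and 23.6 CPM in shPIWIL4. The gap between the groups was several times the distance between libraries of a group. MB21D1 fell by 0.37 on the log2 scale (SE 0.09; 1.29-fold lower; adjusted p = 6.7e-03, edgeR). TMEM173, which encodes STING, was at 307 and 295 CPM in Scrambled and at 238 and 245 CPM in shPIWIL4, again without overlap. TMEM173 fell by 0.32 (SE 0.08; 1.24-fold lower; adjusted p = 8.7e-03, edgeR), and it remained the most abundant member. Both calls were lost without Scrambled library 1 (MB21D1 -0.36, adjusted p = 0.058; TMEM173 -0.26, adjusted p = 0.14; edgeR) and without Scrambled library 2 (-0.34, adjusted p = 0.085, and -0.34, adjusted p = 0.051; edgeR), each fit having a lone Scrambled library that is assumed to vary like the other group.

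IFI16, a nuclear and cytosolic DNA sensor of the PYHIN family, showed the largest change among the 9 tested members. It was at 9.79 and 9.04 CPM in Scrambled (311 and 477 counts) and at 14.1 and 18.8 CPM in shPIWIL4 (713 and 979 counts). Both shPIWIL4 libraries were higher, and they differed from each other more than the Scrambled libraries did. The rise was 1.75-fold, a log2 fold change of 0.81 (SE 0.15; adjusted p = 1.2e-03, edgeR), called under all 15 alternatives with values from 0.59 to 1.02. The ratio of IFI16 to MB21D1 counts went from 0.322 and 0.289 to 0.582 and 0.799. The pair sets a gene called higher against a gene called lower, so the ratio restates those calls.

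TREX1 encodes the exonuclease that degrades cytosolic DNA before cGAS meets it. It was at 14.6 and 15.8 CPM in Scrambled and at 18.5 and 14.6 CPM in shPIWIL4, where library 1 was above both Scrambled libraries and library 2 was level with the lower of them. Its log2 fold change was 0.12 (95% interval -0.17 to 0.40; adjusted p = 0.46, edgeR). It was 0.28 without shPIWIL4 library 2 (adjusted p = 0.027, edgeR) and -0.05 without shPIWIL4 library 1, so its sign rests on 1 library. TREX1 counts are uncertain for another reason: in GENCODE release 29 all 1515 of its exon bases also lie in exons of ATRIP, a checkpoint gene on the same strand. ATRIP rose from 13.1 and 12.7 CPM to 23.5 and 22.1 CPM, and the TREX1 to ATRIP count ratio went from 1.12 and 1.25 to 0.786 and 0.663. How the authors' counting divided reads between the 2 genes is not given in the sources used here.

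ZBP1, a sensor of left-handed Z-form nucleic acids that triggers necroptosis through RIPK3 and MLKL, was barely detected. It had 0 and 1 counts in Scrambled and 3 and 2 counts in shPIWIL4. All 4 values were at or under 3 counts, the limit that a count of 0 allows, which corresponds to between 0.0568 and 0.0944 CPM in these libraries and covers counting error only. No fold is given, and a difference was not detectable at this depth. Its partners were present: RIPK3 was at 13.4 ± 0.39 and 12.3 ± 1.4 CPM and MLKL at 26.2 ± 1.3 and 33.0 ± 2.8 CPM in Scrambled and shPIWIL4 (mean ± SD, n = 2 each). MLKL was called higher (log2 fold change 0.33, adjusted p = 0.018, edgeR) and RIPK3 was not called (-0.13, adjusted p = 0.37, edgeR). Both were picked from the pathway list after their values were seen.

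TBK1, the kinase shared by both branches, was slightly higher. It was at 48.0 and 48.1 CPM in Scrambled and at 57.2 and 57.2 CPM in shPIWIL4, with the libraries of each group nearly equal. The log2 fold change was 0.25 (SE 0.08; 1.19-fold higher; adjusted p = 0.023, edgeR). It was not called in 4 of 15 alternatives, among them upper-quartile factors (0.13, adjusted p = 0.18) and the fits without Scrambled library 1 (0.28, adjusted p = 0.12) and without Scrambled library 2 (0.26, adjusted p = 0.16, edgeR). The ratio of TBK1 to TMEM173 counts rose from 0.156 and 0.163 to 0.241 and 0.233, and that of TBK1 to MAVS counts from 0.201 and 0.211 to 0.288 and 0.280. These ratios do not depend on scaling, but each sets a gene called higher against a gene called lower, so they restate those calls. An antisense gene shares 9.46% of TBK1 exon bases and DDX43 shares 4.88% of those of MB21D1 on the opposite strand, and the strand setting is not given in the sources used here.

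**Figure D3:**
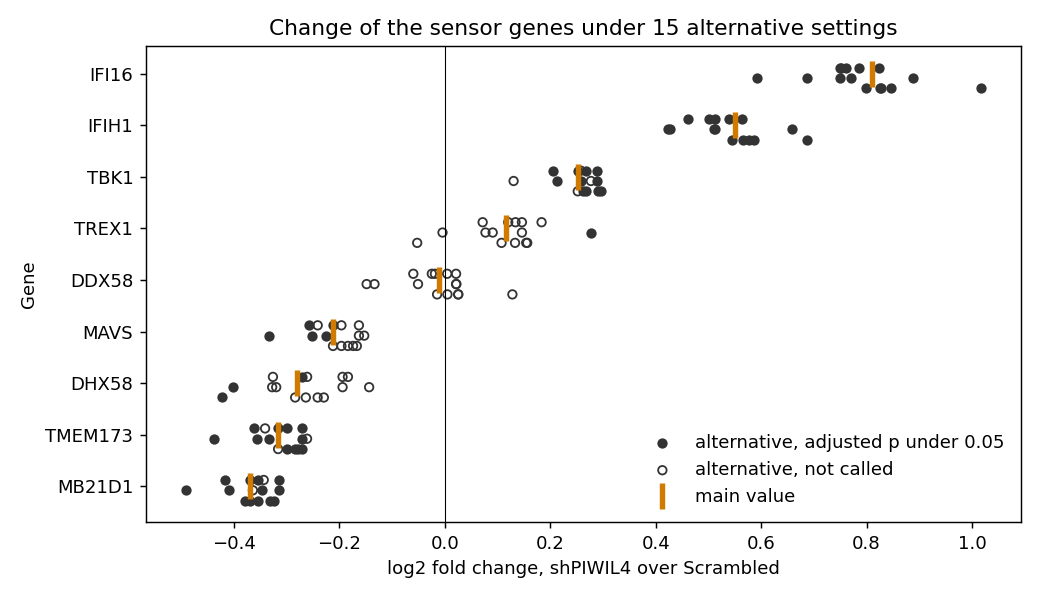
Log2 fold change of the 9 tested sensor genes under the 15 alternative settings (filled circles, adjusted p under 0.05; open circles, not called), with the main value as an orange mark. IFI16 and IFIH1 were called higher under all 15, while DDX58 was called under 0 and ranged from -0.15 to 0.13.

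The wider pathway was described with 201 other genes in 7 role groups, of which 183 were tested. Among them 89 were higher and 31 lower, 48.6% and 16.9%, against 28.7% and 29.1% of all genes; the median log2 fold change was 0.24. Upper-quartile scaling, which moved the median of all genes to -0.12, gave 73 higher and 40 lower. The lists were chosen with earlier results known and carry no test. They hold many interferon-induced genes by design. Among other nucleic acid sensors 15 of 24 tested rose and 1 fell (2 without shPIWIL4 library 2), with a median of 0.43. OAS1, OAS2 and OAS3 encode synthetases that sense double-stranded RNA and activate RNase L. OAS2 rose from 5.05 ± 1.1 to 20.6 ± 3.6 CPM, OAS3 from 4.61 ± 0.24 to 18.7 ± 0.28 CPM and OAS1 from 2.50 ± 0.24 to 6.46 ± 0.60 CPM (mean ± SD, n = 2 each). MNDA, a relative of IFI16, rose from 165 ± 6.9 to 364 ± 35 CPM (log2 fold change 1.14, SE 0.10; adjusted p = 1.3e-05, edgeR). AIM2, the PYHIN inflammasome sensor, had 0 and 2 counts in Scrambled and 2 and 6 in shPIWIL4 and was not tested.

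Of the cofactors of the RNA sensors, 11 of 29 tested were higher and 5 lower (3 lower without Scrambled library 1), with a median of 0.10. The share called, 55.2%, is near the 57.7% of all genes. By direction the shares were 37.9% higher and 17.2% lower, against 28.7% and 29.1% of all genes. TRIM14, a mitochondrial cofactor of MAVS, rose from 69.5 ± 3.5 to 180 ± 18 CPM, and TOMM70A, an import receptor that MAVS engages, rose from 105 ± 3.1 to 169 ± 11 CPM. RNF125, a ubiquitin ligase that marks RIG-I, MDA5 and MAVS for degradation, fell from 16.9 ± 1.2 to 7.42 ± 0.078 CPM. PSMA7, a proteasome subunit, rose by 0.86 on the log2 scale. In the cGAS-STING group 15 of 27 tested rose and 6 fell, 55.6% and 22.2% against 28.7% and 29.1% of all genes, with a median of 0.24; upper-quartile scaling gave 8 higher and 6 lower, and without Scrambled library 1 or library 2 there were 10 and 9 higher. TMED2 and SURF4, cargo receptors of the early secretory route through which STING travels, were higher, at 183 ± 13 against 420 ± 17 CPM and 148 ± 0.67 against 281 ± 3.8 CPM. INSIG1, which serves sterol control and a ubiquitin ligase complex for STING, fell from 368 ± 14 to 135 ± 2.9 CPM, and RHBDF2, an adaptor for STING trafficking, fell from 14.5 ± 1.3 to 6.02 ± 0.89 CPM (mean ± SD, n = 2 each).

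Of the enzymes that limit self nucleic acids, 9 of 14 tested rose and 1 fell (2 without shPIWIL4 library 1; without Scrambled library 2, 0 in edgeR, adjusted or not), with a median of 0.36. These are 64.3% and 7.14%, against 28.7% and 29.1% of all genes. RNASEH2B, a subunit of the RNase H2 that cleaves RNA in RNA-DNA hybrids, rose from 111 ± 5.6 to 188 ± 22 CPM, and SAMHD1, a dNTPase, from 125 ± 3.3 to 193 ± 11 CPM. PNPT1, a mitochondrial RNA-degrading enzyme, rose by 0.50. ADAR, which edits double-stranded RNA so that MDA5 ignores it, was at 596 ± 21 and 729 ± 60 CPM (log2 fold change 0.29, adjusted p = 0.026, edgeR). ADAR was not called in 4 of 15 alternatives, among them upper-quartile factors (0.17) and the fits without Scrambled library 1 (0.35, adjusted p = 0.069) and without Scrambled library 2 (0.26, adjusted p = 0.20, edgeR).

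Of the kinases, adaptors and transcription factors below the sensors, 12 of 32 tested fell and 9 rose, with a median of -0.10. These are 37.5% and 28.1%, near the 29.1% and 28.7% of all genes. IRF3, the factor that TBK1 phosphorylates, was at 83.6 and 88.1 CPM in Scrambled and at 61.4 and 51.1 CPM in shPIWIL4, a fall of 0.61 on the log2 scale (SE 0.10; adjusted p = 7.1e-04, edgeR). IRF7, its interferon-induced relative, had a log2 fold change of -0.56 (SE 0.22; adjusted p = 0.049, edgeR), and lost the call in 9 of 15 alternatives. It was -0.24 without shPIWIL4 library 2 and -0.37 without Scrambled library 2, neither called, and -0.97 without shPIWIL4 library 1 (adjusted p = 1.9e-09, edgeR), so its size rests on single libraries. IKBKE, the kinase most like TBK1, rose from 35.6 and 34.4 CPM to 50.6 and 48.0 CPM (0.49, SE 0.09; adjusted p = 1.0e-03, edgeR). CHUK, the IKK-alpha kinase, rose by 1.00 and the autophagy adaptor TAX1BP1 by 0.85. TNFAIP3 (A20), which restrains signalling to NF-kB and IRF3, fell from 40.4 ± 0.21 to 16.6 ± 0.17 CPM, and the initiator caspase gene CASP10 fell by 1.01.

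**Figure D4:**
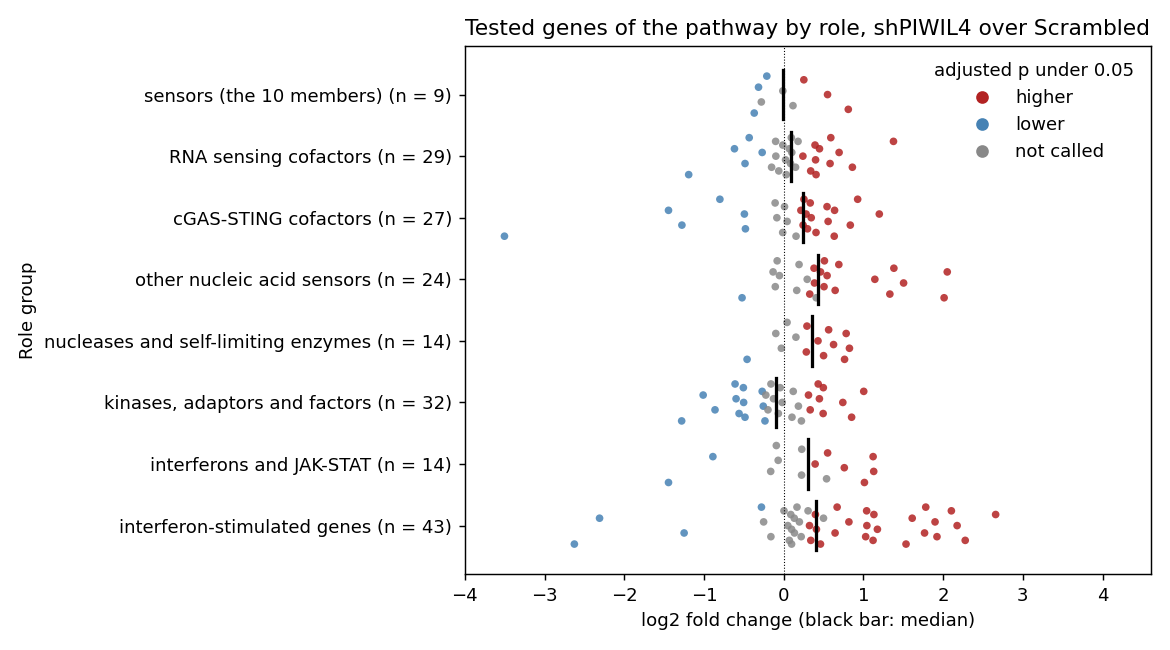
Log2 fold change of shPIWIL4 over Scrambled for each tested gene of the pathway, by role group; points are genes coloured by call (adjusted p under 0.05) and black bars are medians. The sensors lay between -0.37 and 0.81, and the group of other nucleic acid sensors had its median at 0.43.

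Interferon transcripts themselves were at the edge of detection. IFNB1 had 2 and 2 counts in Scrambled and 5 and 4 counts in shPIWIL4, IFNL1 had at most 1 count in any library, and IFNA1, IFNA2, IFNK, IFNE and IFNL2 were at 0 in all 4 (IFNA2, IFNK, IFNE and IFNL2 are named for those counts). At this depth no difference in an interferon transcript could be tested. Of the interferons, their receptors and the JAK-STAT genes, 6 of 14 tested rose and 2 fell (4 without shPIWIL4 library 1), with a median of 0.31. The share called, 57.1%, is near the 57.7% of all genes. By direction the shares were 42.9% higher and 14.3% lower, against 28.7% and 29.1% of all genes. IRF9, the DNA-binding subunit of ISGF3, rose from 22.5 ± 0.71 to 38.0 ± 1.7 CPM (log2 fold change 0.76, SE 0.09; adjusted p = 1.2e-04, edgeR). STAT2, another subunit of ISGF3, was at 189 ± 6.5 and 220 ± 22 CPM and was not called (0.23, adjusted p = 0.061, edgeR). It was called in 6 of 15 alternatives, 1 of them added after seeing the data. Its log2 fold change was 0.33 without shPIWIL4 library 1, a fit with a lone shPIWIL4 library. USP18, a brake on the receptor, rose by 1.12, whereas the receptor kinase JAK1 fell from 99.0 ± 4.8 to 53.4 ± 5.5 CPM and the inhibitor SOCS3 from 7.13 ± 0.20 to 2.62 ± 0.52 CPM (mean ± SD, n = 2 each).

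Of the interferon-stimulated effector genes, 24 of 43 tested rose and 4 fell, 55.8% and 9.30% against 28.7% and 29.1% of all genes, with a median of 0.41. MX1 and IFI6 rose by 2.28 and 1.92 on the log2 scale, while GBP2 and UBE2L6 fell by 2.63 and 2.31. Upstream windows were found for 169 of the 201 pathway genes, and 42 of these (24.9%) held the ISRE core shown for IFIH1, against 3.71% of all genes. It was in 23 of the 79 that were called higher, 1 of the 21 called lower and 11 of the 51 not called. Among the 18 genes not tested, 7 held it. Many of these genes were listed because interferon is known to raise them, so the share describes the list.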

How the data were processed

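RNA-seq read counts per gene were analysed for 2 Scrambled and 2 shPIWIL4 libraries of THP-1 cells, made from 1 ug of total RNA with an Illumina TruSeq kit, per the labels' protocols. The submitters' processing notes name STAR, featureCounts, DESeq2 and hg19, without versions. The sources used here do not give the annotation or strandedness. The authors deposited raw counts per gene, and the deposited TPM values are their length-scaled levels, which have the same sum in every library. TPM served for levels between genes and for alternative tests.

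The whole count table was tested with edgeR 4.0.16 (R 4.3.3): filterByExpr (minimum count 10, minimum total 15) kept 16108 genes, scaling was by TMM, and the quasi-likelihood F test, robust, had group as its only term. TMM takes most genes as stable; with 57.7% called, a direction is relative to the centre of the genes tested. P-values were adjusted by Benjamini and Hochberg over every gene tested, with a threshold of 0.05. SE is the log2 fold change divided by the square root of F, and 95% intervals use its t quantile. Replicate libraries differed by more than sampling noise (chi-square per gene 7.89 in Scrambled and 27.9 in shPIWIL4). A fit that leaves out 1 library takes its spread from the complete pair of the other group alone. Calls gained or lost in such fits therefore also depend on which pair remains. The method was also run on simulated data with few changed genes, equal in rises and falls. That run does not test the scaling at a share of 57.7% called. The members and lists were chosen with earlier results of these data known. Besides the members, the named genes are PIWIL4, up to 4 called genes with the smallest p per role group, and 14 genes fixed by name; others are marked, and some genes under this rule are not reported here. All 201 pathway genes were matched, 3 by an older symbol. Alternatives used DESeq2 1.42.0 and limma 3.58.1 on log2(TPM + 1) and log2(TPM + 0.1). Every count out of 15 alternatives includes 1 fit added after seeing the data, with the replicate numbers crossed. Of the gene rows, 4 carry repeated date-like names and are not named. Upstream windows come from RefSeq (GRCh38.p14) and exon overlaps from GENCODE release 29 (GRCh38), not the authors' build.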

Additional observations from a re-analysis of the deposited data

How the results depend on the processing

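The 15 alternatives include 1 fit added after seeing the data. Across them, IFI16 and IFIH1 were called higher under all 15, MB21D1 lower under 13, TMEM173 lower under 12, TBK1 higher under 11 and MAVS lower under 5. Among the log2 fold changes of the named genes, 0 called values reversed, 32 values lost the call and 10 gained it. Some of these come from fits that leave a lone library in 1 group, which is assumed to vary like the other group. Members called lower numbered 3 with the group as only term. Over the fits that left out 1 library each, members lower ranged from 0 to 3. The 0 arose in edgeR without Scrambled library 1 and without Scrambled library 2, where 1 and 2 members were lower at an unadjusted p under 0.05 (MB21D1, and MB21D1 with TMEM173), against 2 by DESeq2 on all libraries after adjustment. With the replicate number as a block, members lower numbered 1 and higher 2, the calls of TMEM173 (adjusted p = 0.063), TBK1 (0.12), MAVS (0.21) and ADAR (0.12, edgeR) were lost, and the block left 3921 genes higher and 4197 lower of all tested. The deviations of same-numbered libraries correlated at -0.31 over 16108 genes, so the numbers are not shown to pair the libraries. With the numbers crossed, a fit added after seeing the data, 5728 genes were higher and 5641 lower. Upper-quartile factors gave 3446 higher and 5717 lower, moving the share of higher calls. Depth leaves ZBP1, AIM2 and the interferon genes untested, and 2 libraries per group limit what can be said of changes as small as those of MAVS and TBK1.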
